A study of Mus musculus with 3 samples.

Results

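The 14-3-3 proteins are a family of small, highly conserved, mostly acidic proteins encoded in the mouse by 7 genes, Ywhab, Ywhae, Ywhag, Ywhah, Ywhaq, Ywhaz and Sfn. All 7 were found among the 32531 gene rows of the tables, by symbol. The set was chosen in part on the data, because Ywhaz was already known to be among the most abundant genes of these libraries, so levels are given as a description and not tested. The RNA came from cerebral cortex of untreated adult mice of the line Kcnip2-EGFP/Rpl10a (NIDA115), strain C57BL/6J. In this line the control regions of Kcnip2 drive a ribosomal protein, L10a, fused to a green fluorescent protein, and an antibody to the fluorescent part was used to isolate the tagged ribosomes with their bound RNA (translating ribosome affinity purification, TRAP). There was 1 group with 3 libraries of immunopurified RNA, from 1 transgenic line, with 11602248, 13635132 and 14174384 gene counts in replicates 1, 2 and 3. The labels do not say whether the libraries came from separate animals, so the spread between them may be technical, and no whole-cortex library was analysed here, so enrichment in the tagged cells cannot be given.

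A 14-3-3 protein works as a dimer shaped like a cup, and each monomer holds a short stretch of a partner protein that carries a phosphorylated serine or threonine. Kinases such as protein kinase A, AKT and the calcium/calmodulin-dependent kinases make these docking sites and phosphatases remove them. Binding can hold a transcription factor in the cytoplasm, keep a kinase such as RAF shut, mask a signal that would retain a channel inside the cell, or shield the site from phosphatases. The family was first described as abundant acidic protein of brain extracts, and most of its members mix in heterodimers. The members are also named by Greek letters: beta (Ywhab), gamma (Ywhag), epsilon (Ywhae), zeta (Ywhaz), eta (Ywhah), theta or tau (Ywhaq) and sigma (Sfn).

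The genes lie on 6 chromosomes, with Ywhag and Ywhah both on chromosome 5. In the GENCODE M21 annotation (GRCm38, the same assembly as mm10), Ywhaz is at chr15:36770770-36796929 (minus strand), Ywhae at chr11:75732869-75765845 (plus), Ywhab at chr2:163994960-164018588 (plus), Ywhag at chr5:135908409-135934616 (minus), Ywhah at chr5:33018816-33027966 (plus), Ywhaq at chr12:21390071-21417637 (minus) and Sfn at chr4:133600556-133602168 (minus). Their coding sequences have 245 to 255 codons, with Ywhae the longest. Counted with untranslated exons, the transcript with the longest coding sequence differs between the genes in exon number. It has 7 exons for Ywhaz, 6 each for Ywhab, Ywhae and Ywhaq, 2 each for Ywhag and Ywhah, and 1 for Sfn. Over the 21 pairs of genes, coding identity ran from 59.8% for Ywhae with Sfn to 79.0% for Ywhag with Ywhah, and Ywhaz was closest to Ywhab (74.9%) and Ywhaq (74.0%). The 60 coding bases below are the stretch with the most positions shared by all 7 genes (36 of 60), and they show how far reads of one member can be told from those of another even there. Each is written 5′ to 3′ along the coding strand, and capitals mark bases that differ from Ywhaz.
Ywhaz: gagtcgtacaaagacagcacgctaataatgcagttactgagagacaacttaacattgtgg
Ywhab: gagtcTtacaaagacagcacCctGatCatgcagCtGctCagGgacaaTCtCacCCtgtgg
Ywhae: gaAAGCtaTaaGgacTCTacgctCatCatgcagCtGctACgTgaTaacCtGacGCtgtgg
Ywhag: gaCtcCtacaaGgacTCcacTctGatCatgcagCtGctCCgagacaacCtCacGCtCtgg
Ywhah: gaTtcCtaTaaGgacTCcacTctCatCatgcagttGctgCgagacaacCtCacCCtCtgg
Ywhaq: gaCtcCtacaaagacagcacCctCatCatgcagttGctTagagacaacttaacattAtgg
Sfn: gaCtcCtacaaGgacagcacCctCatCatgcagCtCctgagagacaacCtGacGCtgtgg
Ywhaq differed from Ywhaz at 8 of these 60 bases, Sfn at 12, Ywhab at 13, Ywhah at 16, Ywhag at 17 and Ywhae at 21. The stretch is coding exon, spans chr15:36772772-36775292 in Ywhaz with an intron inside it, and starts at coding base 625. The longest run of identical coding bases in any pair was 30, between Ywhag and Ywhah, and no stretch of 50 bases occurred in the transcripts of 2 members. Exact matches of 50 bases or more thus tell the members apart from each other.

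Ywhaz was the highest of the family, and 6 of the 7 genes were abundant. The margin of Ywhaz depended on length: per kilobase of exon it was 1.65-fold over Ywhae, and by counts it was wider. Ywhaz, which encodes the zeta protein, was at 6053, 6639 and 7328 CPM (counts per 1e6 counts of the TMM-scaled library size) in replicates 1, 2 and 3, a mean of 6673 ± 638 CPM (SD, n = 3). By CPM, which is not divided by gene length, it was at place 7 of all gene rows in replicate 1 and at place 5 in replicates 2 and 3, and per kilobase of exon it was at places 5, 6 and 5 of the 23840 genes with a length. The gene at place 10 was at 4956, 4026 and 4208 CPM in replicates 1, 2 and 3, and the gene at place 11 at 3960, 4012 and 3922 CPM, so Ywhaz stood well inside the 10 highest by CPM in each library. In bulk RNA such as this, fewer cells of a type and less RNA per cell cannot be told apart.

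Ywhae, Ywhab and Ywhag formed a second tier of near-equal counts. Ywhae encodes the epsilon protein, which binds phosphorylated NDEL1 in migrating neurons and whose human gene lies in the region deleted in Miller-Dieker syndrome. It was at 2536, 2543 and 2471 CPM (mean 2516 ± 39.7). Ywhag encodes the gamma protein, whose human gene is known from childhood epilepsy, and was at 2278, 2391 and 2509 CPM (mean 2393 ± 115). Ywhab, the beta gene, was at 2016, 2433 and 2522 CPM (mean 2324 ± 269.96). The library values of these 3 genes overlapped, and all 3 were among the 36 highest gene rows by CPM in each library. By counts alone their order did not hold beyond the spread: the log2 ratio of Ywhae to Ywhab averaged 0.12 and that of Ywhab to Ywhag -0.05.

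Ywhah and Ywhaq were lower, and Sfn was close to the detection limit. Ywhah, the eta gene, was at 1004, 896 and 899.6 CPM (mean 933 ± 61.2). Ywhaq, the theta gene, was at 194, 190.0 and 190.0 CPM (mean 191 ± 2.26), the narrowest relative spread of the family. The values of Ywhah, Ywhaq and Sfn did not overlap with each other or with those of the second tier. Sfn encodes the sigma protein, known from skin and other epithelia and as a target of p53 in the cell cycle checkpoint. It had 16, 12 and 4 counts, or 1.36, 0.886 and 0.283 CPM, with exact Poisson 95% intervals, for counting error only, of 0.780 to 2.21, 0.458 to 1.55 and 0.0772 to 0.726 CPM. The limit that a count of 0 allows, 3 counts, was 0.256, 0.222 and 0.213 CPM in replicates 1, 2 and 3. The 4 counts of replicate 3 were just above it, and their interval spanned it. Sfn was under 1 CPM in replicates 2 and 3, so it did not reach the level called detected below, 1 CPM in each library. Epithelial markers were lower still: Krt5, Krt8 and Krt14 had 0 counts in all 3 libraries, Krt18 had 1 count in all, Epcam was at 0.0955 ± 0.108 CPM and Cdh1 at 0.397 ± 0.251 CPM.

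**Figure D1:**
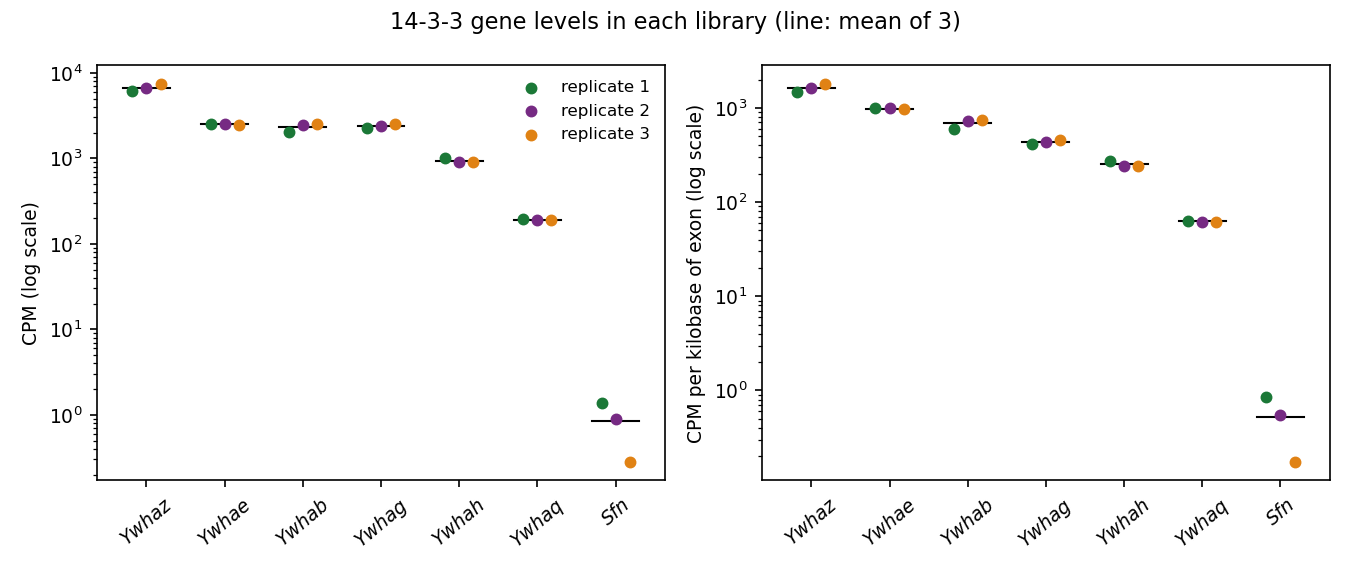
Levels of the 7 genes in each library, as CPM (left) and as CPM per kilobase of union exon length (right), both on log axes, with genes ordered by the right panel; points are libraries and lines their means. Ywhaz is highest in every library (6053 to 7328 CPM), Ywhae, Ywhab and Ywhag overlap in CPM and separate per kilobase, and Sfn lies far below the other 6.

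A longer gene gives more counts at the same level, so the order of genes was taken after division by length, and the 7 differ in exon length from 1613 bases (Sfn) to 5500 (Ywhag). Per kilobase of union exon, Ywhaz was at 1621 ± 155 CPM per kilobase, Ywhae at 979.9 ± 15.5, Ywhab at 687 ± 79.8, Ywhag at 435 ± 20.9, Ywhah at 252 ± 16.5, Ywhaq at 62.5 ± 0.737 and Sfn at 0.524 ± 0.336 (mean ± SD, n = 3). Each gene exceeded the next in 3 of 3 libraries. The log2 ratio within a library was 0.57, 0.70 and 0.89 for Ywhaz over Ywhae, a mean of 0.72 ± 0.16 (1.65-fold). This step depended on the length used: it was 1.40 without any length and 2.43 with the median coding transcript. It was 0.73, 0.46 and 0.37 for Ywhae over Ywhab (mean 0.52 ± 0.19), the smallest step of the order. It was 0.65 ± 0.11 for Ywhab over Ywhag, 0.79 ± 0.16 for Ywhag over Ywhah and 2.01 ± 0.08 for Ywhah over Ywhaq, a 4.02-fold step. The last step, Ywhaq over Sfn, was 7.17 ± 1.16 and rests on 4 to 16 counts of Sfn; it was 6.52 without replicate 3, where Sfn had 4 counts, and 8.10 without any length. Every step was larger than its SD between libraries, but the smallest exact p that flipping signs over 3 libraries can give is 0.25, so none was tested. The order was the same per kilobase of the longest annotated transcript, where the step from Ywhab to Ywhag shrank to 0.18 on the log2 scale, and that pair turned to -0.05 without any length.

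The family as a whole took 1.42%, 1.499% and 1.59% of all gene counts in replicates 1, 2 and 3 (mean 1.503% ± 0.0807), of which Ywhaz alone was 0.612%, 0.659% and 0.730%. Within the family, Ywhaz supplied 44.3% ± 1.55 of the counts, Ywhae 16.8% ± 1.24, Ywhag 15.9% ± 0.222, Ywhab 15.4% ± 0.970, Ywhah 6.24% ± 0.783, Ywhaq 1.28% ± 0.0930 and Sfn 0.00578% ± 0.00395 (mean ± SD, n = 3). Per kilobase, Ywhae had the larger share of 24.3% ± 1.66 and Ywhag the smaller share of 10.8% ± 0.100, while Ywhaz was at 40.1% ± 1.65. The share of Ywhag was the steadiest of the 6 abundant genes relative to its size, at 16.2%, 15.8% and 15.8% of family counts, while Ywhaz ranged from 43.0% to 46.0% and Ywhae from 15.5% to 18.01%.

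**Figure D2:**
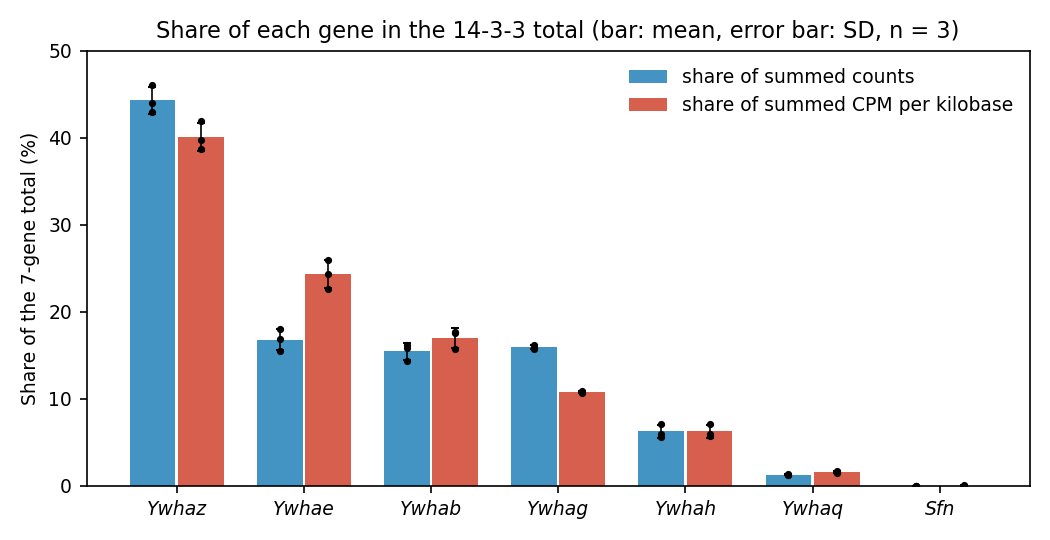
Share of each gene in the 7-gene total, as percent of summed counts (blue) and of summed CPM per kilobase of exon (red); bars are means, error bars SD over 3 libraries, points single libraries. Ywhaz holds 44.3% of counts and 40.1% per kilobase, and the Ywhae bar is higher and the Ywhag bar lower per kilobase.

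Processed copies of 14-3-3 genes elsewhere in the genome differ in number between the members, and they bear on how many reads a member can keep, since a read that matches 2 places falls in the class of alignments that are not unique (13.8% to 19.4% of tallied reads in these libraries). Of all 50-base stretches in the annotated transcripts of Ywhaq, 28.9% also occurred in transcripts of another gene. The largest parts were in the processed pseudogenes Gm2423 and Ywhaq-ps3 (19.1% and 19.0%). Cdk5rap2, annotated as protein coding, shared 12.6%, and the antisense gene Gm4419 shared 4.94%. A stretch can be shared with several genes, so these parts overlap. Gm4419 overlaps Ywhaq in the genome, so stretches in that overlap are counted in the 28.9% but are not at another place. For Ywhaz the share found in any other gene was 15.2%, nearly all of it in the processed pseudogene Gm4202. It was 15.03% for Sfn (mainly Gm7850), 8.62% for Ywhah (Gm12428), 0.215% for Ywhag, and 0% for Ywhab and Ywhae. With 100-base stretches the shares were 18.5% for Ywhaq, 12.4% for Ywhaz, 4.03% for Sfn and 3.11% for Ywhah. The lowest of the 6 abundant genes was thus also the one with the largest shared part. Counting only unshared 100-base stretches as length, Ywhaq was at 76.9 CPM per kilobase in place of 62.5, still below Ywhah at 260.2, and Ywhaz at 1743 in place of 1621. Copies outside the annotated transcripts and the read length were not part of this count. Ywhaq also overlaps an annotated antisense gene, Gm4419, by up to 134 bases of one exon, and whether the counting used strand is not stated.

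**Figure D3:**
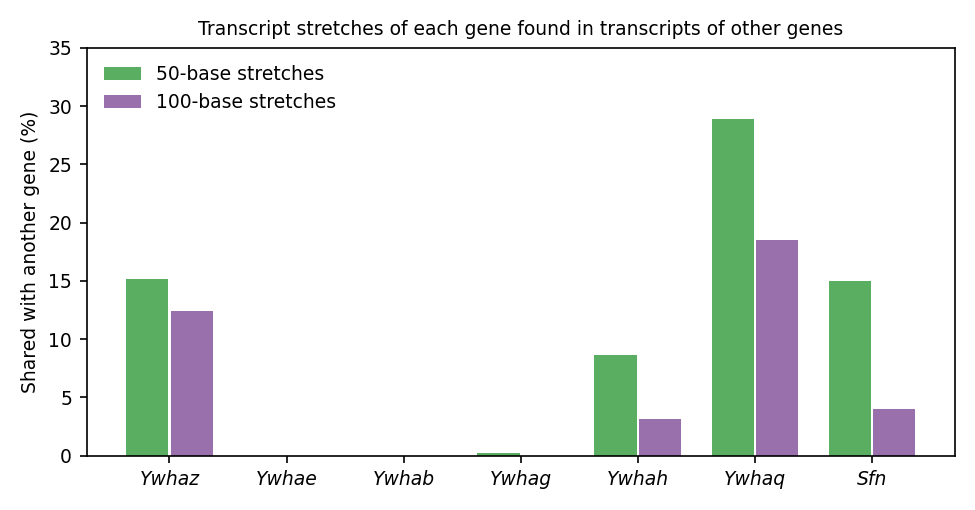
Percent of all 50-base (green) and 100-base (purple) stretches in each gene's annotated transcripts that also occur, on either strand, in an annotated transcript of another gene. Ywhaq has the largest shared part (28.9% and 18.5%), followed by Ywhaz and Sfn, and Ywhab and Ywhae have none.

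The promoters of the members also differ in base composition. In the RefSeq table (GRCm38.p6), 5 of the 7 genes were matched to a promoter entry, Sfn, Ywhae, Ywhag, Ywhah and Ywhaq; Ywhab and Ywhaz were not. The letters CG were counted in the 250 bases before each RefSeq start, on the gene's strand. CG reads the same on both strands. The RefSeq and GENCODE starts differ. For Ywhaq most of the 250 bases (chr12:21417437-21417686) fall inside the GENCODE gene given above, and for Ywhae the last few do. Ywhae and Ywhah each had 29, Ywhaq 24, Ywhag 16 and Sfn 3. The median was 6 over all 32851 promoters, of which 92.1% held at least 1. Among these 5 genes the count did not follow the level: Ywhaq, at 62.5 CPM per kilobase, had more than Ywhag, at 435. The extremes among the members are Sfn (chr4:133602169-133602418, minus strand, 54.4% GC), the lowest gene of the family, and Ywhae (chr11:75732637-75732886, plus strand, 73.2% GC), the most abundant gene per kilobase with an entry. Both are printed 5′ to 3′ with each CG in capitals.
Sfn: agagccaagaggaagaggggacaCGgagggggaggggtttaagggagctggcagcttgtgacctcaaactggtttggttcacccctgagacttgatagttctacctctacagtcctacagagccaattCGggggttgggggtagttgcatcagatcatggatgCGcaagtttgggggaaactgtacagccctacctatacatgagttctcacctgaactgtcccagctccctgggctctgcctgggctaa
Ywhae: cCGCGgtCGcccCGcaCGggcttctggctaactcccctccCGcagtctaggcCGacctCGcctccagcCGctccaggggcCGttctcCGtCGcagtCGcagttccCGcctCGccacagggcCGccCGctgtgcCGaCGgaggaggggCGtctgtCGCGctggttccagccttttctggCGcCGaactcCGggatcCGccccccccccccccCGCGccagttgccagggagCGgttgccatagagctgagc
These are counts of letters, and methylation or binding was not measured here.

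None of the 6 abundant 14-3-3 genes was called as varying between the libraries. Each gene was tested for varying between libraries more than genes of its level, with edgeR's quasi-likelihood fit over 12509 genes past the count filter, of which 11, or 0.0879%, passed at an adjusted p of 0.05. Of the 7 members, 6 passed the count filter, Sfn being the exception. Of these, 0 varied beyond the trend by edgeR, 0 had an unadjusted p under 0.05, and 0 were dispersion outliers by DESeq2. At that background a count of 0 among 6 genes is no result about the family. The adjusted p of edgeR was lowest for Ywhab at 0.982, and without the count filter Sfn had an adjusted p of 0.958. Described by size, the coefficient of variation over the 3 libraries was 1.18% for Ywhaq, 1.58% for Ywhae, 4.82% for Ywhag, 6.56% for Ywhah, 9.56% for Ywhaz and 11.6% for Ywhab, a median of 5.69%. The median was 15.2% over all genes tested and 8.08% over the 2050 genes with a mean of 100 CPM or more. Of those 2050, 1.85% had a smaller coefficient than Ywhaq and 3.22% a smaller one than Ywhae. Ywhab and Ywhaz lay past the middle, with 74.4% and 61.5% below them. Ywhaq had 2275, 2573 and 2682 counts, so counting error alone allows a spread as large as the one seen.

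The members did not all lean the same way. In replicate 1, Ywhab, Ywhaz and Ywhag were at their lowest, with log2 deviations from the gene's mean of -0.20, -0.14 and -0.07, and in replicate 3 they were at their highest, at 0.12, 0.14 and 0.07. Ywhah went the other way, with its highest value in replicate 1 (0.11). Ywhaq stayed between -0.01 and 0.02, and Ywhae between -0.03 and 0.02. All of these lay inside the 5th to 95th percentile of all genes tested, which ran from -0.51 to 0.54 in replicate 1. That range covers genes of all levels and is wide for genes this abundant. The median coefficient of variation was 15.2% over all genes tested and 8.08% over those at 100 CPM or more. The 9 neuron markers summed to 39513, 42386 and 45762 CPM in replicates 1, 2 and 3, with Snap25 the largest part. Snap25, Syt1, Syn1, Rbfox3 and Nefl rose from replicate 1 to replicate 3, while Nefm was highest in replicate 2. Tubb3 fell (73.6, 70.0 and 55.5 CPM), and Elavl4 (274, 269 and 269) and Stmn2 (384, 382 and 388) hardly moved. The 8 astrocyte markers summed to 1534, 2465 and 2159 CPM, with Slc1a2 and Aldoc the largest parts. Gfap and Aldh1l1 were highest in replicate 1 and the other astrocyte markers in replicate 2. The 7 oligodendrocyte markers summed to 563, 664 and 485 CPM. The 7 microglia markers summed to 35.5, 59.7 and 52.9, and the 7 endothelial and mural markers to 15.4, 23.0 and 18.7. Of the microglia markers, 4 of 7 reached 1 CPM in every library (Csf1r at 11.0, 27.5 and 21.04, Cx3cr1 at 11.1, 16.02 and 16.5, P2ry12 at 10.4, 9.67 and 12.6 CPM, and Tmem119), and Tyrobp and C1qa were under 1 CPM in each. Of the endothelial and mural markers, 4 of 7 did (Rgs5 at 5.71, 9.53 and 9.07 CPM, Flt1, Slco1a4 and Pdgfrb), and Cldn5 and Kcnj8 were under 1 CPM in each. No marker of either list was at 0 in all 3 libraries. The libraries also differed in read classes. Reads in genes were 61.9%, 67.6% and 70.7% of those tallied in replicates 1, 2 and 3, and alignments that are not unique 19.4%, 15.8% and 13.8%. The part of these cell types or read classes in the levels of the 14-3-3 genes was not tested. Kcnip2, whose regulatory sequences drive the tag, was at 189, 156 and 148 CPM.

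**Figure D4:**
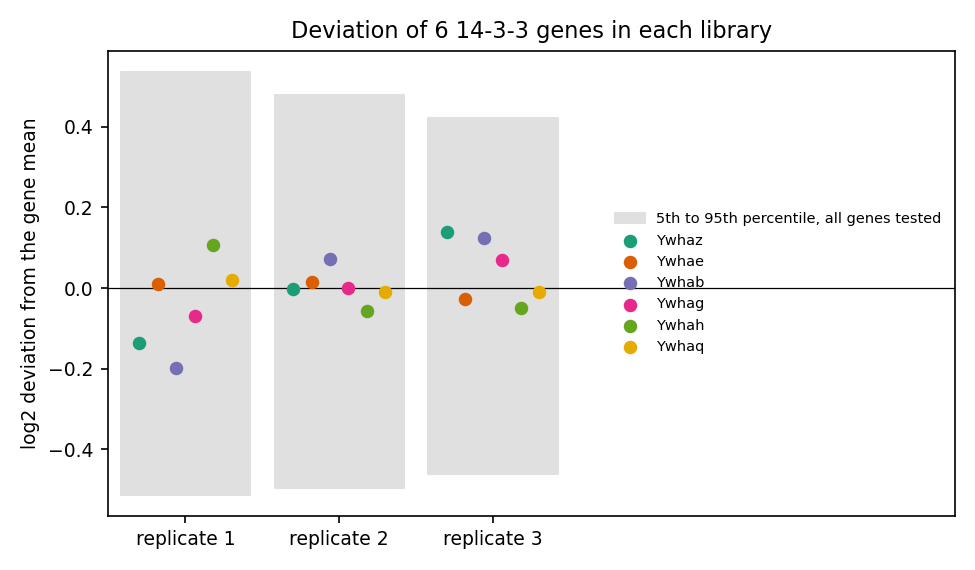
Log2 deviation of each of the 6 abundant 14-3-3 genes from its own mean over the 3 libraries, by library; grey boxes are the 5th to 95th percentile of all 12509 genes tested. Ywhab, Ywhaz and Ywhag are lowest in replicate 1 and highest in replicate 3. Every point lies inside the grey boxes, which cover genes of all levels and are wide for genes this abundant.

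Few genes were as abundant per kilobase as Ywhaz. By the root mean square difference in log2 CPM per kilobase over the 3 libraries, among 14114 genes above 0 in all 3, the closest was Tubb4a, a beta tubulin of the nervous system (0.12), at 1329, 1658 and 1599.5 CPM per kilobase. Also among the closest were the synaptic vesicle gene Syn1 (0.44), at 1049, 1189 and 1345, the calmodulin gene Calm2 (0.52), at 2025, 2264 and 2674, and the sodium pump subunit gene Atp1b1 (0.61), at 1169.9, 1061 and 1026. Syn1 and Calm2 shared with Ywhaz a lowest value in replicate 1 and a highest in replicate 3, and Tubb4a and Atp1b1 did not. With 3 libraries this likeness is one of level.

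Most of the genes that act with 14-3-3 proteins were lower per kilobase than the 6 abundant 14-3-3 genes. In 6 lists of kinases, phosphatases and binding partners with 92 genes, none exceeded Ywhaz per kilobase, 1 (Camk2a) exceeded Ywhah, and 11 exceeded Ywhaq. Of all 32531 gene rows, 12130, or 37.3%, reached 1 CPM in each library, the level called detected here; the lists hold known genes chosen with earlier results in view, so their counts beside this share are a description. Of 30 kinases that make docking sites, 29 were detected, with a median of 11.6 CPM per kilobase beside 4.53 for all tested genes that had a length. Camk2a, the alpha subunit of calcium/calmodulin-dependent kinase II, was at 874 ± 127 CPM per kilobase, Prkaca, a catalytic subunit of protein kinase A, at 146 ± 4.27, and Camk4 at 141 ± 24.97. The lowest was Prkd2, at 0.231 ± 0.238. Of 8 phosphatase genes, all were detected, with a median of 24.5 CPM per kilobase. Ppp3ca, which encodes a catalytic subunit of calcineurin, led at 136 ± 23.1. The protein phosphatase 2A genes Ppp2cb at 75.3 ± 3.50 and Ppp2ca at 31.2 ± 1.16 followed. Ppp3cb, another calcineurin catalytic subunit gene, was the lowest at 6.35 ± 0.484. Of the 5 kinases known to phosphorylate 14-3-3 proteins themselves, the JNK genes Mapk10, Mapk9 and Mapk8 led at 151 ± 6.12, 95.1 ± 5.64 and 20.97 ± 1.93 CPM per kilobase. Prkcd was the lowest at 0.726 ± 0.514.

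Binding partners had medians nearer to that of all genes. Of 20 signalling partners, 17 were detected, beside the 37.3% of all gene rows, with a median of 4.20 CPM per kilobase. Nedd4l, a ubiquitin ligase of sodium channels, was at 42.5 ± 4.43, the kinase Braf at 32.4 ± 1.38 and the cell cycle kinase Wee1 at 18.6 ± 0.871, and Cdc25c was at 0.318 ± 0.461, with 0.849 in replicate 1 against 0.0751 and 0.0288 in the others. Of 15 transcription regulators held in the cytoplasm by 14-3-3 proteins or otherwise bound by them, 13 were detected, with a median of 3.56 CPM per kilobase. Foxo3 was at 20.5 ± 1.30, the CREB coactivator Crtc1 at 15.9 ± 1.22, Trp53 at 12.6 ± 0.945 and Mlxipl at 0.235 ± 0.163. Of 14 partners with roles in neurons, 13 were detected, with a median of 9.86 CPM per kilobase. The actin-severing protein gene Cfl1 was at 219.6 ± 10.8, the GABA-B receptor gene Gabbr1 at 44.6 ± 1.44 and the kinesin light chain gene Klc2 at 31.99 ± 2.92. Tph2, the serotonin-synthesizing enzyme of the raphe, averaged 0.158 with an SD of 0.273, all of it in replicate 1. In the 6 lists, 86 genes were tested for variation between libraries by edgeR and 0 passed, beside the 0.0879% of all genes.

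**Figure D5:**
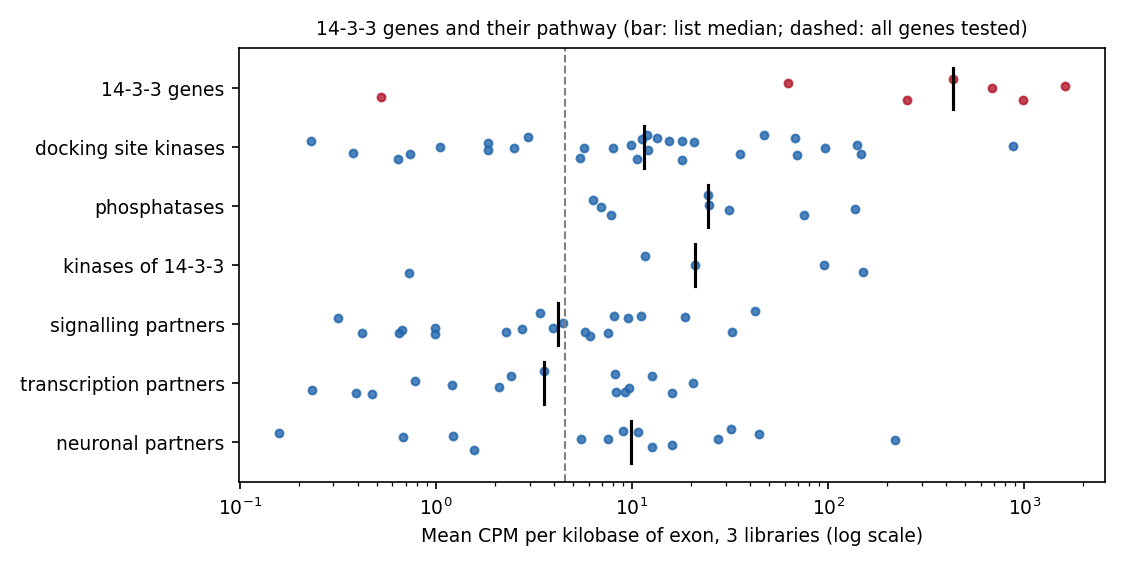
Mean CPM per kilobase of exon over the 3 libraries (log axis) for the 14-3-3 genes (red) and 6 lists of genes that act with them (blue); each point is a gene, black bars are list medians and the dashed line is the median of all genes tested that had a length (4.53). The 14-3-3 median (435) lies right of every other list median, with Sfn the lone low member, and of the other genes only Camk2a lies above Ywhab.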

How the data were processed

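The authors deposited 1 table of read counts per gene symbol for each of the 3 libraries, not normalized. STAR 2.0.0e, HTSeq and the mm10 build are named, per the submitters' processing notes; no counting mode, strand setting or annotation release was given in the sources used here. Rows that name no gene were left out: reads in genes were 61.9%, 67.6% and 70.7% of those tallied. Counts were scaled by TMM over all gene rows (edgeR 4.0.16, R 4.3.3). Union exon lengths came from GENCODE M21 for 23840 rows. Variation between libraries was tested with glmQLFit (robust, intercept only) on genes past filterByExpr (minimum count 10), as the F ratio of the quasi-dispersion to its trend, with Benjamini-Hochberg adjustment at 0.05; the script was tested on simulated data. Coding sequences were aligned with MAFFT 7.526. DESeq2 1.42.0 was an alternative. All 7 members, the 3 highest and the lowest gene of each list, and the 5 genes closest to Ywhaz were to be named; 1 of these 5 is not reported here. The members and lists were chosen with earlier results of these data known.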

Additional observations from a re-analysis of the deposited data

How the results depend on the processing

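The levels of the 7 genes in CPM moved by less than the spread between libraries with DESeq2 size factors and with total gene counts. The values without each replicate in turn did so too (35 of 35 values in all). Leaving out 1 of 3 libraries can never move a mean by as much as its SD, so those values could not have come out otherwise. Per kilobase of exon, the family share of the total was 2.05% in place of 1.503%, and the Ywhaz share of the family 40.1% (41.5% with unshared 100-base stretches as length, an alternative chosen after seeing the data) in place of 44.3%. The order of genes depended on length. Without length, the log2 ratio was 1.40 for Ywhaz over Ywhae, 0.12 for Ywhae over Ywhab, -0.048 for Ywhab over Ywhag (reversed), 1.36 for Ywhag over Ywhah and 2.28 for Ywhah over Ywhaq. With the longest transcript it was 0.18 for Ywhab over Ywhag and 2.29 for Ywhah over Ywhaq. With the median coding transcript it was 2.43 for Ywhaz over Ywhae, 0.71 for Ywhae over Ywhab, 0.36 for Ywhab over Ywhag and 2.54 for Ywhah over Ywhaq; the median of the annotated coding Ywhaz transcripts, 628 bases, is shorter than its coding sequence of 735. With unshared stretches Ywhah over Ywhaq was 1.76. The number of genes that varied between libraries was 66 with no count filter, 5 without robust moderation, 26 by DESeq2 dispersion outliers and 4 to 9 without single replicates (4 without replicate 2) in place of 11, and 0 members of the family passed under any of these. Adjusted p-values of edgeR for single members ran from 0.958 to 0.9999 over 42 alternatives. No paired analysis was possible because there is 1 group. Depth limits Sfn, with 4 to 16 counts.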
